A study of Homo sapiens with 7 samples.

Results

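AHNAK, AHNAK2, PLEC, MACF1, DST, HUWE1, BIRC6, HERC2, DYNC1H1 and MDN1 encode giant proteins from very long mRNAs, and their transcription, mRNA abundance and polysome association were examined in HCT116 cells. They are the 10 rows of the deposited RPKM table, out of 20056 gene symbols with values, that carry these symbols. They were picked for protein size, which the canonical transcripts put between 482 kDa for HUWE1 and 888 kDa for DST, and were selected in part on a measured value, the low ratio of polysome to RNA-seq RPKM of AHNAK. Polysome values of the 10 genes against RNA-seq values are for that reason a description with no test. The other comparisons were not themselves used to pick them, but each shares RNA-seq or polysome values of AHNAK with that ratio. The set was also named with earlier results of these data known.

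HCT116 is an established line of human colorectal carcinoma cells, and one untreated log-phase culture condition, in serum-free medium with epidermal growth factor, insulin and transferrin, was shared by all libraries. Transcription rate (TR) was read by GRO-seq in 2 libraries, which hold the RNA that engaged polymerases extended in isolated nuclei. Steady-state mRNA abundance (RA) was read by RNA-seq of kit-purified mRNA in 3 libraries, and translation activity (TA) by sequencing mRNA from the polysome fractions of a sucrose gradient, after cycloheximide, in 2 libraries. The replicates are called biological by the study, but nothing in the labels says that they came from separate cultures, so p-values measure the spread between these libraries, which may be technical. One cell line in one condition was measured, and no gene was perturbed.

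A ribosome stays on a reading frame of this size far longer than on an ordinary one, and the frame offers room for many ribosomes at the same time. The encoded proteins belong to families that are large for different reasons. AHNAK and AHNAK2 are scaffolds of the cell cortex built of many near-identical repeats. PLEC, MACF1 and DST are plakin cytolinkers, chains of spectrin-like repeats that tie actin, microtubules and intermediate filaments to each other and to junctions. HUWE1, BIRC6 and HERC2 are ubiquitin ligases whose catalytic domain sits at the end of a very long substrate-binding body, and DYNC1H1 and MDN1 are AAA+ ATPases whose ring of ATPase modules is made from a single chain.

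The repeats of AHNAK and AHNAK2 can be read directly in their coding sequence, and they are shown because they set these 2 genes apart from the other 8 and bear on how their reads can be counted. In each gene the commonest word of 12 bases occurred 23 times. In AHNAK the copies most often lay 384 bases apart, a spacing seen 8 times, and in AHNAK2 they lay 495 bases apart, a spacing seen 20 times. Below are 3 successive copies of each, on the minus strand of GRCh37 and read 5′ to 3′, with the commonest word in capitals; each lies inside the largest coding exon of its gene.
AHNAK chr11:62298483-62298512: tacccaagaTGAAAATGCCCAagttcagca
AHNAK chr11:62298099-62298128: tgcccaagaTGAAAATGCCCAagtttagca
AHNAK chr11:62297715-62297744: tgcccaaggTGAAAATGCCCAagttcagca
AHNAK2 chr14:105419269-105419298: cagcaagttCAAAATGCCCAAgttcaagat
AHNAK2 chr14:105418774-105418803: cagcaagttCAAAATGCCCAAgttcaagat
AHNAK2 chr14:105418279-105418308: cagcaggttCAAAATGCCCAAgttcaagat
The run aaaatgcccaagttca, 16 bases long, was common to 2 of the 3 AHNAK copies and to the 3 AHNAK2 copies. Of the 31-base words of the coding exons, 20.1% in AHNAK and 28.9% in AHNAK2 occurred more than once in GRCh37, and 0% of either occurred outside the gene's own coding exons. A read of that length from such a word could come from several places in the same gene but from no other gene.

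HERC2 was the opposite case. Of its 31-base coding words, 32.3% were also found elsewhere in the genome and 0% a second time within its own coding exons, so its reads could be split with near-identical copies of parts of the gene, and its level is uncertain for that reason. The share found elsewhere was 1.498% in PLEC and at most 0.0281% in the other 6 genes. Whether reads with several positions were kept is not given in the sources used here. If they were dropped, AHNAK2 and AHNAK, with 28.9% and 20.1% of words found more than once, would lose reads as HERC2 would.

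The mRNAs differ in exon layout and share a low proportion of UTR, which a choice of large proteins, and so of long reading frames, favours. AHNAK (chr11:62201014-62323707) carries 17328 of its 17670 coding bases in a single exon, and AHNAK2 (chr14:105403581-105444711) carries 16734 of 17385. PLEC (chr8:144989321-145050902), MACF1 (chr1:39546988-39952849) and DST (chr6:56322785-56819628) each have a largest coding exon of 5451 to 6216 bases among 32 to 104 exons. HUWE1 (chrX:53559057-53713697), BIRC6 (chr2:32582091-32844638), HERC2 (chr15:28356186-28567325), DYNC1H1 (chr14:102430910-102522780) and MDN1 (chr6:90352217-90529513) are split into 74 to 102 exons, of which the largest coding one spans 270 to 1395 bases. UTRs made up 5.08% to 30.1% of the canonical transcript, with a median of 6.998%, and lay below the median of 49.5% over 13695 tested genes in 10 of 10. DYNC1H1 had the highest share, and the other 9 lay at or below 10.9%. All these coordinates and models are those of GENCODE 44 on GRCh37, the build of the deposited table.

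The 7 libraries held 3391897 to 5629982 reads for TR, 20299018 to 22532134 for RA and 22421062 to 30805391 for TA. A single giant protein gene took 642 to 8956 reads in a TR library, 2487 to 36844 in an RA library and 530 to 18259 in a TA library, and since these reads carry no molecular identifiers, such depths speak of counting error alone. RPKM divides the reads of a gene by its exon length and by the size of the library, so levels of different genes are compared per length and each is a share of a library. In these bulk samples, fewer cells with an mRNA and less mRNA per cell cannot be told apart. The epithelial label held, with 6 of 6 epithelial markers at a mean RA of 47.1 to 977 RPKM. Of 9 markers of blood, liver, glia, muscle, fibroblasts and endothelium, MYH7 was at 0, COL1A1 was at 11.5 and the other 7 were at 0.275 RPKM or less in RA. Over the 13789 genes above 0 in each parameter, the median stability index, log2(RA/TR), was -0.50 and the median translation index, log2(TA/RA), was -0.47.

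AHNAK, which binds annexin and S100 proteins beneath the plasma membrane, came second to PLEC in TR. Its TR was 75.2 and 43.5 RPKM, its RA 42.5, 44.7 and 21.1 RPKM, and its TA 8.41 and 3.32 RPKM. RA replicate 3 was well below the other RA libraries, RA replicate 2 exceeded the lower TR library, and both TA libraries lay under every other library. Mean TR of AHNAK exceeded that of 93.6% of tested genes, mean RA that of 83.9% and mean TA that of 48.6%. The stability index was -0.72, and limma did not call it (log2 -0.74, SE 0.47, adjusted p = 0.195). Its translation index was -2.62, a 6.15-fold lower share in TA than in RA, and over the 6 pairs of a TA and an RA library it ran from -3.75 to -1.33. Of all other genes with ratios 2.23% lay lower, and of the 10815 others that, like the 10 genes here, reached 1 RPKM in TR, RA and TA alike, 0.0277% did. That level includes a floor on TA, the numerator of the index, and so by itself takes out genes with a low index.

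AHNAK2, its less studied paralog, gave 22.9 and 17.6 RPKM in TR, 8.07, 14.96 and 8.18 RPKM in RA, and 3.30 and 1.29 RPKM in TA. The 3 parameters did not overlap in any library, and the second RA library stood above the other two. Its RA against TR was -1.005 on the log2 scale (SE 0.42) and missed the threshold in limma (adjusted p = 0.0639). Without RA replicate 2 the value was -1.30 and passed (adjusted p = 0.0185), and it also passed without TA replicate 1 (0.0259) or TA replicate 2 (0.0248), which enter only the estimate of spread. The translation index was -2.18, the next lowest of the set after AHNAK, with a range of -3.53 to -1.29 over library pairs. Exons of PLD4 on the opposite strand overlap 2.78% of the AHNAK2 exons, and the strand setting of the counting is not given.

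**Figure D1:**
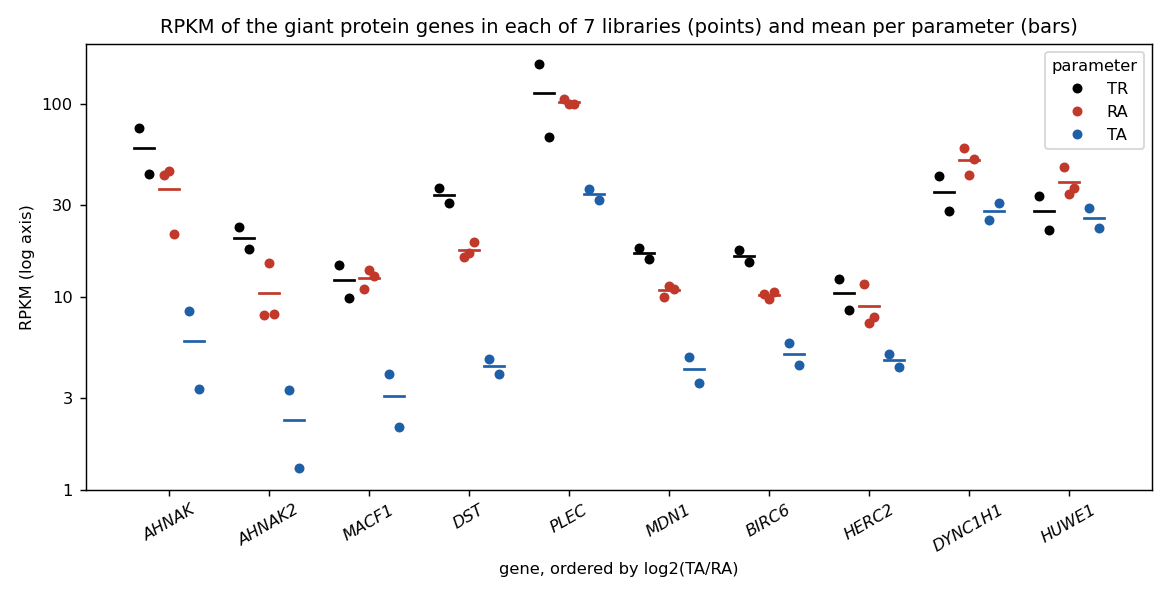
RPKM of the 10 giant protein genes on a log axis in each of 7 libraries (points: 2 TR in black, 3 RA in red, 2 TA in blue), with a bar at the mean of each parameter and genes ordered by translation index. Both TA points lie below all 3 RA points in 10 of 10 genes, while TR and RA points overlap in 4.

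PLEC (plectin), which links intermediate filaments to hemidesmosomes, had the highest level of the set in each parameter. Its TR was 160.4 and 67.4 RPKM, its RA 106, 99.3 and 99.7 RPKM, and its TA 36.0 and 31.8 RPKM. RA and TA were tight, but the TR libraries differed 2.38-fold and enclosed the RA values. RA against TR was therefore undecided at -0.03 (SE 0.33, adjusted p = 0.937). It became 0.59 without TR replicate 1 (adjusted p = 0.0276) and -0.66 without TR replicate 2 (adjusted p = 0.0230), so a single library set its direction. The translation index was -1.58, with a range of -1.74 to -1.46.

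MACF1, which joins microtubules to actin, gave 14.5 and 9.89 RPKM in TR, 10.9, 13.8 and 12.7 RPKM in RA, and 3.98 and 2.10 RPKM in TA. TR and RA overlapped and TA lay below both. RA against TR was 0.05 (SE 0.30, adjusted p = 0.890), and the translation index was -2.04. The table counts MACF1 over 17689 exon bases where the canonical transcript has 24340, and it lists KIAA0754, another name of MACF1 in the RefSeq gene table, as a separate row of 6979 bases. That row was not a member; its mean TR was 10.7, its mean RA 3.16 and its mean TA 0.476 RPKM, a translation index of -2.73.

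DST (dystonin), the longest transcript of the set at 24674 exon bases, has an epithelial isoform that anchors keratin filaments. It had 36.7 and 30.5 RPKM in TR, 16.0, 16.9 and 19.3 RPKM in RA, and 4.77 and 3.98 RPKM in TA. The parameters were separate in every library, with TR highest and TA lowest. RA was lower than TR by limma (log2 -0.94, SE 0.18, adjusted p = 0.00217), and this call was kept whichever library was left out. The translation index was -1.99, with a narrow range of -2.27 to -1.74. From TR to TA the share of DST was 7.67-fold lower.

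HUWE1, a HECT ubiquitin ligase that acts on MCL1, p53 and histones among others, had the highest translation index of the set. Its TR was 33.4 and 22.1 RPKM, its RA 46.8, 34.1 and 36.7 RPKM, and its TA 28.8 and 22.6 RPKM. Every RA library lay above both TR libraries and both TA libraries, and TR and TA overlapped. RA against TR was 0.52 (SE 0.24) and missed the threshold (adjusted p = 0.0875). The translation index was -0.61, 1.53-fold lower in TA than in RA, and 43.7% of other genes with ratios lay lower, or 35.6% of those at 1 RPKM in each parameter.

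BIRC6, an inhibitor of apoptosis that both carries and attaches ubiquitin, gave 17.4 and 15.2 RPKM in TR, 10.3, 9.70 and 10.6 RPKM in RA, and 5.74 and 4.40 RPKM in TA. No parameter overlapped another, and the RA libraries differed by at most 1.09-fold. RA was lower than TR (limma log2 -0.67, SE 0.19, adjusted p = 0.0142), and the call was lost without TR replicate 1 (-0.57, adjusted p = 0.0865). Its translation index was -1.01. HERC2, a HECT ligase of the DNA damage response, gave 12.3 and 8.57 RPKM in TR, 11.6, 7.28 and 7.89 RPKM in RA, and 5.03 and 4.31 RPKM in TA. TR and RA overlapped, and TA lay below every RA and TR value. Its RA against TR was -0.23 (SE 0.27, adjusted p = 0.464), its translation index -0.93.

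DYNC1H1, the motor chain of cytoplasmic dynein, followed the pattern of HUWE1. It had 42.0 and 27.7 RPKM in TR, 59.0, 42.7 and 51.5 RPKM in RA, and 24.98 and 30.6 RPKM in TA. Each RA library exceeded each TR and TA library, and TR and TA overlapped. RA against TR was 0.57 (SE 0.23, adjusted p = 0.0610) and passed without TR replicate 1 (0.87, adjusted p = 0.0329) and without RA replicate 2 (0.69, adjusted p = 0.0373). The translation index was -0.88. The table's exon length, 14340 bases, is below the 19940 of the canonical transcript.

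MDN1 (midasin), which strips assembly factors from the precursor of the large ribosomal subunit, gave 17.8 and 15.8 RPKM in TR, 9.997, 11.4 and 11.0 RPKM in RA, and 4.89 and 3.56 RPKM in TA. The 3 parameters were separate in every library. RA was lower than TR (limma log2 -0.63, SE 0.20, adjusted p = 0.0229). The call was lost without TR replicate 1 (-0.54, adjusted p = 0.125), TR replicate 2 (-0.72, adjusted p = 0.0647) or RA replicate 3 (-0.65, adjusted p = 0.0571). The translation index was -1.35.

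Whether mRNA abundance kept pace with transcription in these genes was a comparison that the choice of genes had not used. For AHNAK it does share the RA values with the ratio that was used. In limma on log2(RPKM + 0.1) with Benjamini-Hochberg adjustment over 14305 genes, RA was lower than TR for 3 of the 10 genes (DST, BIRC6 and MDN1), where 48.0% of all genes tested were lower. RA was higher for 0 of 10, where 19.2% of all genes were higher, and 7 of 10 did not pass in either direction, against a background of 67.2% called. At an unadjusted p under 0.05, 1 gene was higher and 4 were lower. The median stability index of the set was -0.43, beside -0.50 over all genes with ratios, -0.14 over the 10815 others at 1 RPKM in each parameter and 0.16 over the 6547 others whose RA lay in the range of the set. Its place thus depends on the genes it is set beside, and its members ran from -0.96 for AHNAK2 to 0.55 for DYNC1H1. Every RA library lay below every TR library in 4 of 10 genes (54.9% of all genes tested) and above it in 2 (24.3%).

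The zero of this comparison depends on scaling. Centring each library on its median adds 0.67 to every RA against TR value, which turned the calls over all genes from 2743 higher and 6870 lower to 5066 higher and 4814 lower. On that scale 0 of the 10 genes were lower and 2 were higher, HUWE1 (1.19, adjusted p = 0.00237) and DYNC1H1 (1.24, adjusted p = 0.00131). Without TR replicate 1 and with no centring, 3 were higher (PLEC, HUWE1 and DYNC1H1) and 1 was lower (DST). Centring leaves the order of the genes as it was, so HUWE1 and DYNC1H1 stayed at the top and AHNAK2, DST and AHNAK at the bottom.

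**Figure D2:**
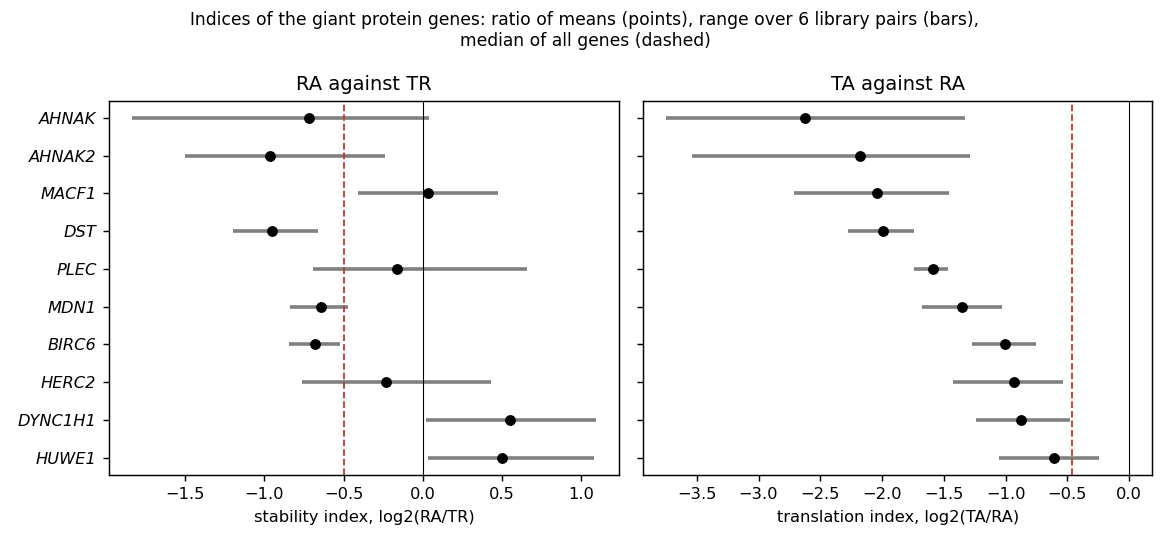
Stability index, log2(RA/TR), on the left and translation index, log2(TA/RA), on the right for each giant protein gene: points are ratios of mean RPKM, grey bars span the 6 pairs of single libraries, and red dashed lines mark the medians over all genes, -0.50 and -0.47. Stability indices fall on both sides of the median, while the 10 translation indices lie to its left.

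Polysome values against RNA-seq values, which took part in choosing the genes, are described without a test. The translation index ran from -2.62 for AHNAK through -2.18 for AHNAK2, -2.04 for MACF1, -1.99 for DST, -1.58 for PLEC, -1.35 for MDN1, -1.01 for BIRC6, -0.93 for HERC2 and -0.88 for DYNC1H1 to -0.61 for HUWE1. Its median was -1.47, and it lay below -2 in 3 of 10 genes and below -1 in 7 of 10, beside 5.09% and 26.8% of all genes with ratios. Of the 10825 genes at 1 RPKM in each parameter, the 10 included, 0.443% and 18.1% lay as low. That level includes a floor on TA, which takes out genes with low TA. The scaffolds came lowest and the cytolinkers next, whereas the ATPases were split, with BIRC6 and HERC2 between MDN1 and DYNC1H1. Both TA libraries lay below the 3 RA libraries in 10 of 10 genes, where 43.8% of all genes tested did so, and below both TR libraries in 8 of 10, where 65.5% did, the exceptions being HUWE1 and DYNC1H1.

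The ranking of the genes by level shifted accordingly between parameters. In TR the order was PLEC, AHNAK, DYNC1H1, DST, HUWE1, AHNAK2, MDN1, BIRC6, MACF1 and HERC2. Among these neighbours, AHNAK stood apart from DYNC1H1 and BIRC6 from MACF1 in every library, and the other neighbours overlapped. In RA, PLEC came first, followed by DYNC1H1, HUWE1 and AHNAK, which overlapped in turn. DST lay apart on both sides, and below it MACF1, MDN1, AHNAK2, BIRC6 and HERC2 overlapped each with the next. In TA, PLEC (33.9 RPKM) again came first with no overlap, DYNC1H1 (27.8 RPKM) and HUWE1 (25.7 RPKM) overlapped, and a gap separated them from AHNAK (5.87 RPKM). The remaining genes, from BIRC6 (5.07 RPKM) to AHNAK2 (2.29 RPKM), overlapped each with its neighbour.

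Long mRNAs outside the set also had low translation indices. Among 10815 other genes that reached 1 RPKM in TR, RA and TA alike, the median translation index was -0.22 in the shortest decile of exon length (181 to 1335 bases), -0.04 in the second (1336 to 1841 bases), -0.22 again in the sixth and -0.71 in the longest decile (6924 bases and more). For 34 other genes at least as long as DYNC1H1 in the table it was -1.12. For the 11 of comparable length whose RA also lay within the range of the set it was -1.06. Spearman's rho between translation index and exon length was -0.26 over these 10815 genes, as a description, since genes share their libraries. AHNAK and AHNAK2 lay below all 34 of these long mRNAs, MACF1 and DST below all but 2, PLEC below all but 5 and MDN1 below all but 13. BIRC6 and HERC2 had 25 of the 34 below them, DYNC1H1 26 and HUWE1 30. Of the giant protein genes, 6 thus lay below the median of these 34 long mRNAs and 4 above it. The level of 1 RPKM includes a floor on TA, the numerator of the index. Among all 63 other long mRNAs with ratios the median was -1.38, and MDN1 at -1.35 lay above it. Of the 63, 3 lay below AHNAK, 8 below AHNAK2, 10 below MACF1, 11 below DST, 21 below PLEC and 33 below MDN1. For BIRC6, HERC2, DYNC1H1 and HUWE1 the counts were 49, 50, 51 and 57.

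**Figure D3:**
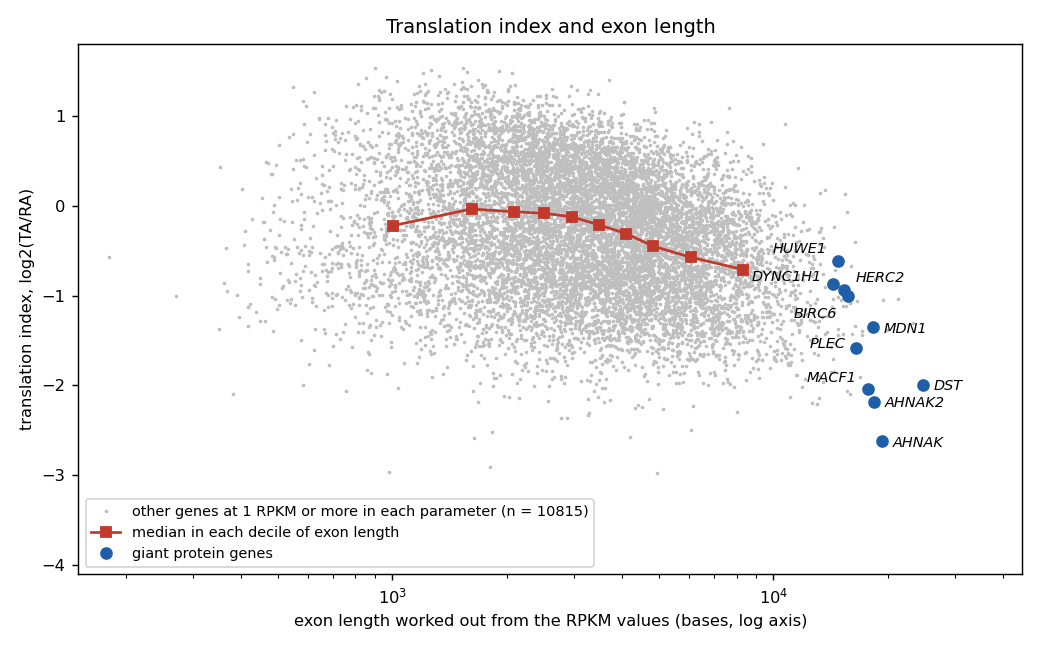
Translation index, log2(TA/RA), against exon length in bases on a log axis for 10815 other genes (grey points), with the median of each decile of exon length (red squares, placed at the median length of the decile) and the 10 giant protein genes (blue). The red line starts at -0.22 in the shortest decile, is highest at -0.04 in the second and falls to -0.71 in the longest, and the blue points spread from -0.61 for HUWE1 down to -2.62 for AHNAK.

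Coding length and 3′ UTR length were then taken apart, as these mRNAs are long through their coding part. By coding length, the median translation index of other genes was -0.38 under 1000 bases (3357 genes), -0.14 at 1000 to 2000 bases (4104 genes), -0.31 at 2000 to 4000 bases (2430 genes), -0.60 at 4000 to 8000 bases (647 genes), -0.85 at 8000 to 12000 bases (72 genes) and -1.12 at 12000 bases or more (18 genes). Spearman's rho over all 10628 genes with an annotated coding part was -0.04 with coding length and -0.26 with 3′ UTR length. A rank correlation over the whole range does not show the rise and fall of these medians. Within each class of 3′ UTR length the median was lower at 4000 or more coding bases than under 2000. For 3′ UTRs under 500 bases it was -0.54 (120 genes) against 0.01 (1968 genes). From 4000 bases of 3′ UTR it was -0.89 (110 genes) against -0.64 (888 genes). A single huge coding exon, as in AHNAK and AHNAK2, was also taken as a class. In it, 33 other genes with a coding exon of 5000 bases or more had a median of -0.85, with a range of -2.29 to 0.21. Another 74 genes with at least 8000 coding bases but no such exon had a median of -1.02. No minimum of coding length was set for the 33, so these medians do not part exon size from coding length. For NACA and UNC13B, both among the 33, the exon length behind the RPKM (3472 and 6370 bases) is below that exon (5589 and 8247 bases).

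The replicates of the set did not scatter evenly. TR replicate 1 exceeded TR replicate 2 in 10 of 10 genes, where 45.2% of all genes tested did so, by 1.13-fold in MDN1 to 2.38-fold in PLEC. TA replicate 1 exceeded TA replicate 2 in 9 of 10 genes, where 47.4% did so, by up to 2.56-fold in AHNAK2, and DYNC1H1 was the exception at 0.815-fold. Among the 34 other long mRNAs the median difference was 0.13 for TR and 0.21 for TA on the log2 scale. Across all 10815 genes, the difference between TR replicates had a Spearman's rho of 0.18 with exon length and that between TA replicates 0.24. The third RA library had a rho of 0.16, and AHNAK lay 1.04 lower there on the log2 scale than in the other RA libraries. RNA integrity was not among the values at hand, and its part in these differences was not tested.

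**Figure D4:**
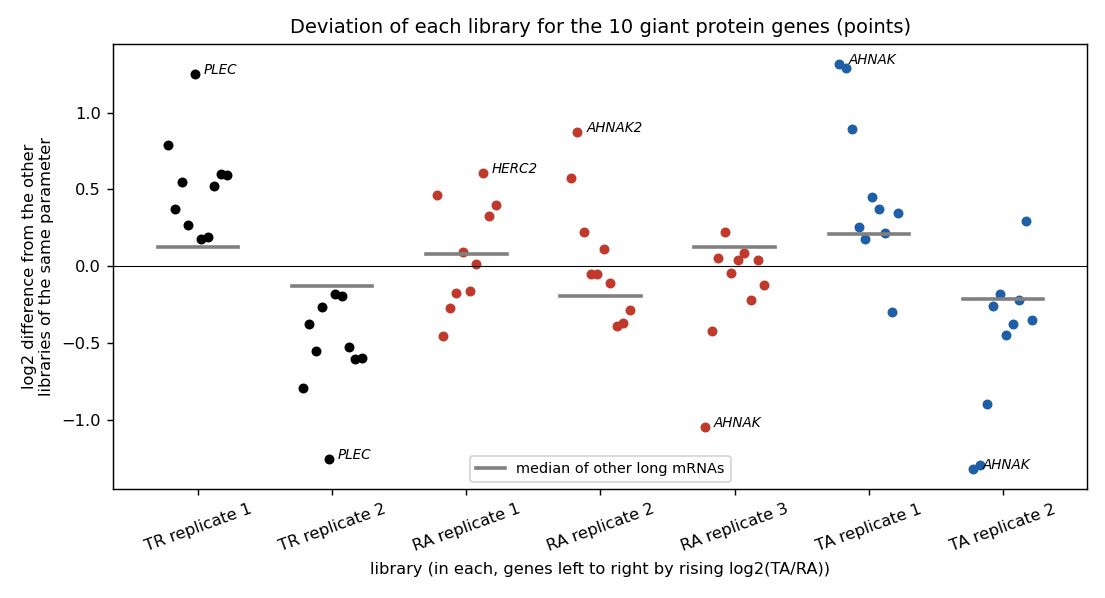
Log2 difference of each library from the other libraries of the same parameter for the 10 giant protein genes (points, with the most deviating gene named), and the median of 34 other long mRNAs (grey bars). All 10 points lie above 0 in TR replicate 1 and below 0 in TR replicate 2, 9 of 10 lie above 0 in TA replicate 1, and the 3 RA libraries have points on both sides of 0.

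Relatives and partners of the giant proteins were read from lists that the translation index of the set had not defined, although they too were drawn up with earlier results known. Of 78 other giant protein genes in the table, 52 were tested. This list was not matched to the set in size. The canonical transcripts of EPPK1, VCAN and ZNF469, named below, have 7260, 10188 and 11859 coding bases. HUWE1, the lowest of the set, has 13122. TA was lower than RA for 37 of the 52 (29.2% of all genes tested were lower) and higher for 0 (6.66% were higher), with 0 higher at an unadjusted p under 0.05, and the median translation index was -1.45. Without TA replicate 1 the lower count was 23 and without TA replicate 2 it was 22. Centring each library on its median, which adds 0.50 to TA against RA and moved the calls over all genes from 953 higher and 4173 lower to 2713 higher and 1404 lower, left 17 lower and 0 higher. RA was lower than TR for 35 and higher for 0, again with 0 higher at an unadjusted p. Many of the 52 passed the filter through TR alone, and of the 26 that reached 1 RPKM in TR, RA and TA alike, 12 were lower in RA against TR and 20 were lower in TA against RA, with a median translation index of -1.10. Fitted over the 10825 genes at that level, 33.8% of genes were lower and 24.3% higher in RA against TR, and 29.8% were lower and 8.87% higher in TA against RA, where 0 of the 26 were higher in either. EPPK1 (epiplakin, -2.29) and VPS13A (a lipid transfer protein, -2.19) were the lowest of these 26, and RYR1 (a calcium release channel, 0.13) and ZNF469 (a zinc finger protein, -0.42) the highest. VPS13A fell from an RA of 10.8, 11.9 and 12.6 RPKM to a TA of 2.73 and 2.43 RPKM (limma log2 -2.15, SE 0.23, adjusted p = 0.00249). EPPK1 also passed (log2 -2.03, SE 0.46, adjusted p = 0.0130), but not without TA replicate 1 (adjusted p = 0.0658), TA replicate 2 (0.0560) or either TR replicate (0.0519). In RA against TR, PRKDC, the catalytic subunit of a DNA repair kinase (0.73), and VCAN, the matrix proteoglycan versican (0.56), had the highest stability indices and ZNF469 (-2.99) and RYR1 (-2.21) the lowest.

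The cytolinkers related to PLEC, MACF1 and DST gave a mixed result. Of 11 tested plakin, spectrin and dystrophin family genes, TA was lower than RA in 6 and higher in 1, with a median translation index of -0.65, and RA was higher than TR in 3 and lower in 4. Over all genes tested, 29.2% were lower and 6.66% higher in TA against RA, and 48.0% were lower and 19.2% higher in RA against TR, and the counts of this list and of those that follow are read beside these shares. EPPK1 and SPTBN1 (a beta spectrin) were lowest. SPTBN1 fell from an RA of 24.1, 18.3 and 22.8 RPKM to a TA of 4.69 and 4.74 RPKM (limma log2 -2.17, SE 0.26, adjusted p = 0.00283). ACTN1 and ACTN4, the short actin crosslinkers of the same superfamily, were highest, at 0.63 and 0.61. ACTN1 passed (log2 0.63, SE 0.19, adjusted p = 0.0360), and ACTN4 passed only on centred libraries (adjusted p = 0.142, centred 0.0249). The ACTN1 call was lost without either TA replicate (adjusted p = 0.161 and 0.0995), RA replicate 2 (0.0802) or RA replicate 3 (0.0722). In RA against TR, ACTN4 (log2 1.67, adjusted p = 0.00145) and ACTN1 (log2 1.32, adjusted p = 0.000434) rose, while SPTBN4 (log2 -2.29, adjusted p = 8.0e-05) and EPPK1 (log2 -2.02, adjusted p = 0.00479) fell, EPPK1 not without TR replicate 1 (0.0848).

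Among 17 other large ubiquitin ligases, TA was lower than RA in 9 and higher in 0 (0 at an unadjusted p), with a median of -0.64 near the value of HUWE1. RA was higher than TR in 4 and lower in 4. RNF213, HERC1 and HECTD4 had translation indices below those of HUWE1, BIRC6 and HERC2, at -1.31, -1.12 and -1.11. RNF213, an interferon-induced ligase, passed at log2 -1.28 (SE 0.20, adjusted p = 0.00417) and HERC1 at -1.08 (SE 0.22, adjusted p = 0.00862). HECTD4 was lower both in RA against TR (log2 -0.87, adjusted p = 0.00501) and in TA against RA (log2 -1.09, adjusted p = 0.00655). The small relatives HERC5 and HERC3 had the highest translation indices, 0.37 and 0.28, neither past the threshold except HERC5 on centred libraries (0.88, adjusted p = 0.0145), and rose in RA against TR (log2 1.04 with adjusted p = 0.00259, and log2 0.74 with adjusted p = 0.0402). HERC1 and HECTD4 lost their TA against RA calls on centred libraries (adjusted p = 0.0811 and 0.0655), as HECTD4 did that in RA against TR (0.422). HERC3 lost its call without RA replicate 1 (0.0675), RA replicate 3 (0.124), TR replicate 2 (0.273) or either TA replicate (0.0560 and 0.0568). HERC1, RNF213, UBR4 and MYCBP2 also stood among the other giant genes, as did EPPK1, UTRN and DMD from the cytolinkers.

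The partners of the ATPases had median translation indices above those of DYNC1H1 and MDN1. Of 20 tested dynein and dynactin genes, TA was lower than RA in 5 and higher in 3, with a median translation index of 0.08 beside -0.88 for DYNC1H1, and RA was higher than TR in 11 and lower in 1. The 5 of 20 lower in TA against RA are near the 29.2% over all genes. The light intermediate chain DYNC1LI1, which binds cargo adaptors, went from an RA of 28.6, 30.4 and 33.3 RPKM to a TA of 62.9 and 60.4 RPKM (limma log2 1.002, SE 0.15, adjusted p = 0.00398). DCTN6 rose as well (log2 0.65, adjusted p = 0.0286), and ACTR1B (log2 -1.05, adjusted p = 0.00675) and DYNLT3 (log2 -1.03, adjusted p = 0.0178) fell. The calls of DCTN6 and DYNLT3 were lost without TA replicate 1 (adjusted p = 0.0645 and 0.0990) or TA replicate 2 (0.151 and 0.0569), and DCTN6 also without either TR replicate (0.0565). On centred libraries ACTR1B and DYNLT3 lost theirs (adjusted p = 0.0705 and 0.150). In RA against TR, DYNLT3 (log2 2.15, adjusted p = 0.000133) and DCTN6 (log2 1.87, adjusted p = 4.8e-05) were highest, NDE1 fell (log2 -0.82, adjusted p = 0.00469, but 0.469 on centred libraries) and DYNC1I2 was at -0.43 (adjusted p = 0.152).

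MDN1 and most of its partners lay on opposite sides of the median of all genes. Of 11 factors that act with it in 60S ribosome assembly, TA was higher than RA in 7 and lower in 1, with a median translation index of 0.76 beside -1.35 for MDN1. WDR18 (log2 1.01, SE 0.22, adjusted p = 0.0116) and GTPBP4 (log2 0.97, SE 0.19, adjusted p = 0.00813) had the highest translation indices, SENP3 (log2 -1.23, SE 0.25, adjusted p = 0.00891) fell, and TEX10 was at -0.28 (adjusted p = 0.284). RSL24D1 had a log2 difference of 0.99, above that of GTPBP4 on the limma scale, and its call (adjusted p = 0.0491) was lost with any library but RA replicate 2 left out (0.0596 to 0.232). RA was higher than TR in 6 and lower in 2, with RSL24D1 (log2 2.76, adjusted p = 0.000139) and PES1 (log2 1.53, adjusted p = 0.000163) highest and SENP3 (log2 -1.12, adjusted p = 0.00417) and NLE1 (log2 -0.90, adjusted p = 0.00242) lowest. In TA against RA, GTPBP4 (adjusted p = 0.0593) and SENP3 (0.0648) lost their calls without TA replicate 1 and WDR18 (0.0661) without TA replicate 2, and in RA against TR, SENP3 lost its call without TR replicate 2 (0.0538). Centring took both SENP3 calls away (adjusted p = 0.0582 for TA against RA and 0.138 for RA against TR) and that of NLE1 in RA against TR (0.311). The direct difference between MDN1 and its partners was not tested, as MDN1 was a member of the chosen set.

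Of 5 tested partners of AHNAK, RA was higher than TR in 3 and lower in 1, and TA was higher than RA in 1 and lower in 1. Only 3 of the 5 (S100A10, ANXA2 and MYOF) reached 1 RPKM in TR, RA and TA alike. The calls of lower fell among the others. A gene that passed the filter through TR alone has an RA under 1 RPKM, which favours a lower RA against TR. That does not extend to TA against RA, and the cause of these calls was not tested. S100A10 and ANXA2, which form the complex that binds AHNAK, rose from TR to RA (log2 2.20, adjusted p = 0.000120, and log2 1.03, adjusted p = 0.00304). ANXA2 also rose in TA against RA, from an RA of 289.8, 270.5 and 250.1 RPKM to a TA of 549 and 507 RPKM (log2 0.97, adjusted p = 0.0124), S100A10 was at -0.03 (adjusted p = 0.957), and MYOF, a relative of dysferlin, was at -0.22 (adjusted p = 0.385) after a rise from TR to RA (log2 0.69, adjusted p = 0.0112). Without TA replicate 1 ANXA2 lost its call (adjusted p = 0.0802), and without TR replicate 2 MYOF lost that in RA against TR (0.0764).

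**Figure D5:**
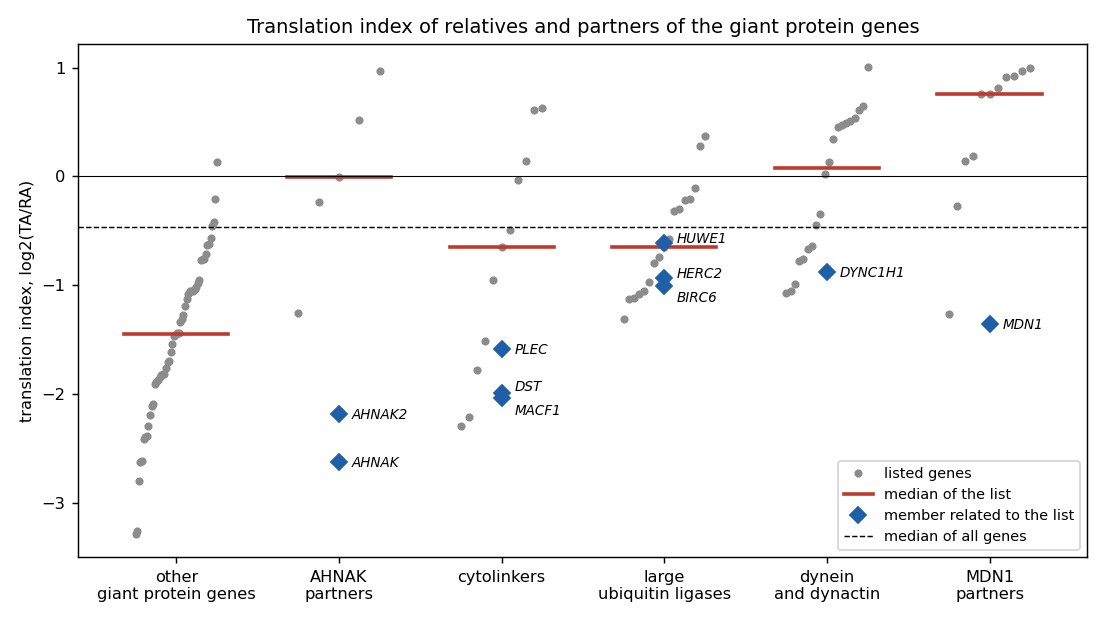
Translation index, log2(TA/RA), of listed relatives and partners (grey points, with the median of each list in red) beside the giant protein genes they relate to (blue diamonds), and the median over all genes, -0.47 (dashed). List medians run from -1.45 for other giant protein genes to 0.76 for MDN1 partners, and MDN1 and DYNC1H1 lie below the medians of their partners.

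The genes whose profile over the 7 libraries was most like that of AHNAK were sought by Euclidean distance of log2(RPKM + 0.1), each gene centred on its own mean, among 10824 genes that reached 1 RPKM in TR, RA and TA alike. AHNAK2 was the nearest, at a distance of 0.97. STK36, a serine/threonine kinase, followed at 0.99, ANO9, an anoctamin membrane protein, at 1.13, PLXNB1, a semaphorin receptor, at 1.252, and MEGF6, a protein with many EGF-like domains, at 1.31. Their translation indices were -2.98, -2.36, -1.97 and -1.68 for STK36, ANO9, PLXNB1 and MEGF6. These 4 have exon lengths of 4935, 2875, 7354 and 7439 bases, all shorter than any giant protein gene here. Because they were selected for likeness, the distances are a description with no test.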

How the data were processed

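The data were TR (2 libraries, GRO-seq), RA (3 libraries, RNA-seq) and TA (2 libraries, polysome mRNA) of HCT116 cells. The authors aligned the reads to hg19 by TopHat, took exon counts from HTSeq-count and deposited them as RPKM, 1 column per replicate. Tool versions, counting mode, strand setting and annotation are not given in the sources used here.

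Library sizes, exon lengths and reads were worked out from the RPKM values, each of which is a whole read count divided by both. This held for 100% of values within 0.0001 of a read. Recovery and fit were tested on simulated data. Library sizes were recovered for 7 of 7 libraries, and reads were exact for 99.2% of 3039 genes. The fit called 24 of 100 genes changed by log2 1 and 72 of 100 changed by log2 2, in the right direction. Of 14105 unchanged genes, 5 were called. Far fewer genes were changed there than were called in the data, which makes the adjusted threshold stricter.

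Indices are log2 ratios of mean RPKM, with no pseudocount. For tests, log2(RPKM + 0.1) of all 7 libraries was fitted by limma (version 3.58.1, R 4.3.3, eBayes trend) over the 14305 genes whose mean reached 1 RPKM in TR, RA or TA, and p-values were adjusted by Benjamini-Hochberg at 0.05. Summaries used Python 3.11.15, numpy 2.4.6, scipy 1.17.1, pandas 2.3.3 and matplotlib 3.10.9.

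Of the 20056 symbols with values, 18772 matched GENCODE 44 on GRCh37 directly, 911 through an older symbol in RefSeq and 373 not at all. Sequences, words of 31 and 12 bases and lengths come from the GENCODE canonical transcripts.

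The 10 giant protein genes and the lists of relatives, partners and markers were chosen with earlier results of these data known. Named besides the 10 were, in each list, the 2 highest and 2 lowest genes in each index among those that reached 1 RPKM in TR, RA and TA alike, and the 5 genes nearest to AHNAK. Other settings tried were pseudocounts of 0.01 and 1, no filter, at least 1 RPKM in each parameter, centring of each library on its median, a replicate block and each library left out. A crossed replicate block, the subsets by RA range and the classes by coding length, 3′ UTR length and coding exon were chosen after seeing the data.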

Additional observations from a re-analysis of the deposited data

How the results depend on the processing

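With each library centred on its median, the median stability index of the 10 genes turned to 0.24, beside 0.18 for all genes, and their median translation index was -0.96, beside 0.03; RA was then higher than TR for 2 of them and lower for 0, and for 7 other giant genes it was higher. The count of genes higher in RA against TR became 5066, genes higher and lower in TA against RA became 2713 and 1404, other giant genes lower in TA against RA became 17, and the median translation index of the 63 other long mRNAs with ratios went from -1.38 to -0.88. With a pseudocount of 1 that median was -0.78. With at least 1 RPKM in each parameter, 3656 genes were lower in RA against TR, with 12 other giant genes, and 20 other giant genes were lower in TA against RA. With no filter 1 other giant gene was higher in RA against TR.

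Whether equal replicate numbers mark the same culture is not given in the labels. Deviations correlated at 0.15 for RA and TR, -0.56 for TA and RA and 0.02 for TA and TR over 10825 genes. These correlations cannot show whether cultures were shared, because differences between replicates also went with exon length. The fit without a block takes no account of the dependence of -0.56 between TA and RA. A replicate block, in which RA replicate 3 has no partner and so carries no weight, left 109 genes higher and 1387 lower in TA against RA, with 18 other giant genes lower, and MDN1 lost its call (adjusted p = 0.0838). In all, 16 of 72 values of single genes lost their call under this block, at adjusted p of 0.0532 to 0.143, among them HERC3 and MYOF in RA against TR and HERC1, HECTD4, GTPBP4, WDR18, DCTN6, DYNLT3, ACTN1 and ANXA2 in TA against RA. With the pairing of TA and RA crossed, which was chosen after seeing the data, DYNC1H1 was higher in RA against TR (1 of 10 genes), as was 1 other giant gene, and MDN1 again lost its call (adjusted p = 0.0511).

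Leaving out 1 library at a time gave 0 to 3 of the 10 genes higher and 1 to 4 lower in RA against TR, 0 to 1 other giant genes higher, 198 to 1030 genes higher and 1803 to 4228 lower in TA against RA, and 22 to 39 other giant genes lower. Signs that turned in RA against TR were those of PLEC (0.64 centred, -0.66 to 0.59 with a library left out), MACF1 (-0.22 to 0.33 with a library left out), BIRC6 (0.0016 centred), HERC2 (0.44 centred, -0.49 to 0.026 with a library left out), MDN1 (0.038 centred), VPS13A (-0.014 with either block, -0.26 to 0.33 with a library left out), SPTBN1 (-0.24 to 0.59), HERC1 (0.30 centred), ACTR1B (0.63 centred, -0.17 to 0.10 with a library left out) and DYNC1I2 (0.24 centred). In TA against RA they were ZNF469 (0.061 centred, -1.15 to 0.27 with a library left out), RYR1 (-0.048 to 0.32), SPTBN4 (-0.075 to 0.32), TEX10 (0.22 centred), MYOF (0.28 centred) and S100A10 (0.48 centred, -0.27 to 0.22 with a library left out). Beyond the added constant of centring, the cause of these changes was not tested. Over all settings, 139 of 170 counts and medians stayed within 1.5 times the reported count or the spread of library pairs, and 869 of 1008 values of single genes kept their direction and their side of the threshold. With 2 or 3 libraries a parameter, and TR the shallowest, a missed threshold does not show that RA and TR were alike. RPKM hold no amount per cell, and integrity of these long mRNAs, ribosomes per mRNA and protein were not measured.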

Other observations

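The nearest genes to AHNAK in profile also had replicate patterns of the same kind. STK36 gave 12.8 and 9.65 RPKM in TR, 9.503, 10.6 and 7.35 RPKM in RA, and 1.33 and 0.994 RPKM in TA, and MEGF6 gave 13.9 and 10.5 RPKM in TR, 5.33, 9.63 and 4.43 RPKM in RA, and 2.81 and 1.22 RPKM in TA. In both, as in AHNAK and AHNAK2, replicate 1 was the higher of the TR and of the TA libraries, and replicate 2 the highest of the RA libraries. Likeness of replicates was part of the distance that selected these genes.

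KIAA0754, the row that RefSeq treats as part of MACF1, had 10.6 and 10.7 RPKM in TR, 2.56, 3.29 and 3.64 RPKM in RA, and 0.716 and 0.236 RPKM in TA. Its stability index was -1.75 where that of the MACF1 row was 0.03.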
